A study of Mus musculus with 19 samples.

Results

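The comparison set 4 KO sham mice against 5 WT MEST mice, 9 of the 19 libraries of the series. They were chosen because the labels give both groups the same weeks of life, 17.3 to 17.9 weeks (mean 17.6) in KO sham and 17.4 to 18 weeks (mean 17.7) in WT MEST mice. KO sham mice carry the Fabp7 knockout and were handled without a shock. WT MEST mice are wild type, named for the maximal electroshock seizure threshold (MEST), and received 1 electroshock a day through ear clips, starting at 20 mA with daily steps of 2 mA, until a maximal seizure with tonic extension of the hind limbs, at which point tissue was taken. Genotype and treatment therefore change together and cannot be told apart within this pair, whereas age does not separate the groups. The remaining KO MEST mice (5 libraries, 18.9 to 19.4 weeks) and WT sham mice (5 libraries, 15.9 to 16.3 weeks) form the converse pair, which shares no library with the first, and are used for comparison. All mice were males of the C57BL/6NJ strain, sampled at Zeitgeber time 20, in the dark phase, and each library holds the polyadenylated RNA of a block of hippocampus and cortex from 1 hemisphere of 1 mouse.

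FABP7 is a small carrier of long-chain polyunsaturated fatty acids, made in the adult brain mainly by astrocytes and oligodendrocyte precursor cells. Electroshock seizures are a classic trigger of immediate early genes, which neurons transcribe within minutes of activity without new protein synthesis and whose transcripts decay within hours. Seizures are also a known stimulus for astrocytes, in which the intermediate filament gene Gfap is the usual marker of reactivity.

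Reads in genes ranged from 34.3 to 46.3 M in KO sham libraries and from 30.3 to 38.5 M in WT MEST libraries. Markers of astrocytes, of excitatory neurons and of hippocampal subfields were all detected in the block. Summed markers lay between 9440 and 9640 CPM (counts per M reads, scaled with TMM factors) for astrocytes in KO sham libraries, against 9470 to 10100 CPM in WT MEST libraries. Markers of excitatory neurons summed to 5550 to 6550 CPM in KO sham and 6080 to 6470 CPM in WT MEST libraries, and those of hippocampal subfields to 1430 to 1500 CPM in KO sham and 1460 to 1540 CPM in WT MEST libraries. Choroid plexus markers (1230 to 1930 CPM in KO sham, 1180 to 1990 CPM in WT MEST) and striatal markers (970 to 1470 CPM in KO sham, 914 to 1460 CPM in WT MEST) were also present, with ranges that overlapped between the groups. In tissue of this kind, fewer cells of a type and less RNA per cell cannot be told apart. In a principal component analysis of the 9 libraries, the first component (25.6% of the variance) placed KO sham 3 at -38.3 and KO sham 2 at -14.3, against 2.75 and 9.15 in the other KO sham libraries and 2.11 to 16.2 in WT MEST libraries. Without KO sham 3, 7 genes were higher and 4 lower in the test described next, 9 of them shared with the 12 reported.

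Fabp7, the deleted gene (chromosome 10, 57784881 to 57788450, plus strand, GRCm38), had 0.145, 0.108, 0.0515 and 0.197 CPM in KO sham 2 to 5, against 14.1, 15.6, 13.6, 18.0 and 12.7 CPM in WT MEST 1 to 5. These are 20 reads in all in KO sham and 2437 in WT MEST libraries, so that KO sham libraries held 0.852% of the WT MEST rate (exact 95% interval 0.52% to 1.32%, counting error only). The level matched the genotype on the label in all 19 libraries, with 0 to 4 reads in KO MEST and 301 to 475 reads in WT sham libraries. The log2 fold change was -6.08 (SE 0.19, adjusted p = 3.3e-11 with limma) in KO sham over WT MEST and -6.55 (adjusted p = 5.97e-14) in KO MEST over WT sham.

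Of 16137 genes tested with limma on log2(CPM + 0.1), 12 passed a Benjamini-Hochberg adjusted p of 0.05, which is 0.0744% of the genes tested. In KO sham mice 6 were higher (Ddo, Npas4, Psma7, Adat2 and the noncoding C030037D09Rik and 5930438M14Rik) and 6 were lower (Fabp7, Folh1, Hddc3, Gfap, Adgrg6 and the pseudogene Tmem181b-ps), or 0.0372% in each direction. Among them, 3 of the higher and 4 of the lower genes differed by more than 2-fold. All 12 had groups that did not overlap, which held for 283 of the genes tested (1.75%, with 0.973% higher and 0.781% lower). At an unadjusted p under 0.05, 369 genes were higher (2.29%) and 372 lower (2.31%), 4.59% together. The absolute log2 fold change had a median of 0.08 with a median SE of 0.10, and the 95% interval of the fold change lay within 2-fold either way for 94.3% of the genes and within 1.5-fold for 79.9%. DESeq2 on the recovered reads called 37 genes (18 higher and 19 lower, 0.229% together, 0.112% and 0.118% by direction), which include all 12, and edgeR called the same 12. Both groups have few mice, 1 library each, and the p-values measure the spread between these mice.

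The converse pair, KO MEST over WT sham, reverses the treatment and holds the genotype, but its mean ages differ by 3.06 weeks. There 4029 of 16088 genes tested (25%) passed, 2369 higher (14.7%) and 1660 lower (10.3%) in KO MEST mice. The split of directions depends on the scaling, since 58.8% of the calls were higher with the scaling used here, 48.6% when each library was scaled by its own total and 51.5% with edgeR. The median absolute log2 fold change was 0.15 in KO MEST over WT sham, against 0.08 in KO sham over WT MEST. Of the 4022 genes that passed in the converse pair and were tested in both, 9 (0.224%) passed in KO sham over WT MEST. Age cannot be told apart from genotype and treatment in the converse pair.

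**Figure D1:**
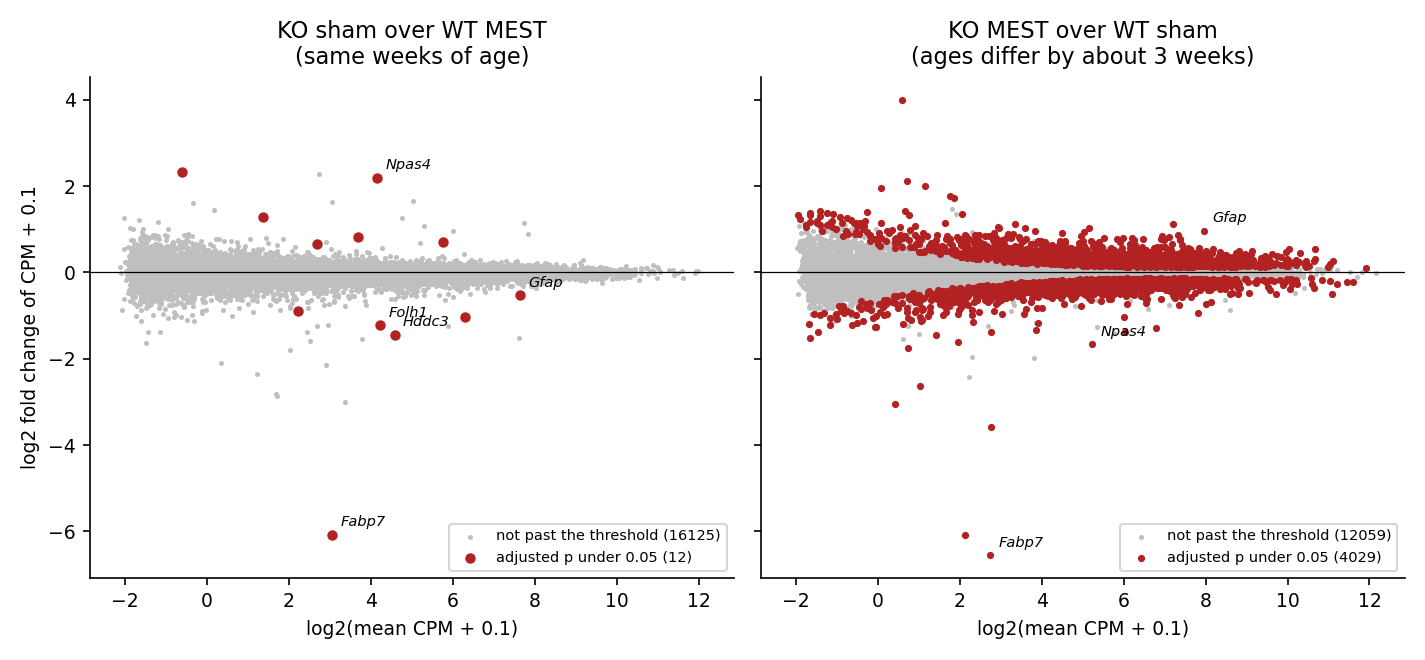
Log2 fold change of each gene tested (vertical) against its mean level (horizontal, log2 of CPM + 0.1), for KO sham over WT MEST (left) and KO MEST over WT sham (right). Each point is a gene and red marks an adjusted p under 0.05, 12 of 16137 genes on the left and 4029 of 16088 on the right, with Fabp7 lowest at -6.08 and -6.55.

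In a single fit of all 19 libraries, the count of genes past the threshold was given for every pair of groups, with the difference of their mean ages. KO sham over WT MEST had the smallest, 4 higher and 6 lower (0.062%), at an age difference of -0.11 weeks. KO MEST over KO sham had 317 higher and 214 lower (3.29%) at 1.53 weeks, and KO MEST over WT MEST had 838 higher and 605 lower (8.98%) at 1.42 weeks. The comparisons with WT sham mice were the largest, with 1591 higher and 1459 lower in KO sham (18.8%, 1.54 weeks), 1909 higher and 1930 lower in WT MEST (23.9%, 1.64 weeks) and 2012 higher and 1682 lower in KO MEST mice (23%, 3.06 weeks). In a principal component analysis of all 19 libraries, WT sham libraries lay apart on the first axis (16.6% of the variance), at -30.8 to -20.4 against 1.6 to 14.2 in the other 14 libraries. These comparisons share libraries and are not independent of each other, and WT sham mice were the youngest and formed 1 group, so that their age and their group cannot be told apart.

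Of the 10 members of the fatty acid binding protein family, 3 were expressed highly enough to be tested. Fabp3, the heart-type carrier that neurons also make, had 73.0, 93.1, 67.2 and 66.9 CPM in KO sham libraries and 66.1, 58.9, 64.8, 63.9 and 62.6 CPM in WT MEST libraries. The groups did not overlap, but the log2 fold change of 0.24 did not pass (adjusted p = 0.904). In the converse pair Fabp3 was lower in KO MEST than in WT sham mice (log2 fold change -0.63, adjusted p = 4.42e-06). Fabp5, the epidermal-type carrier, averaged 98.5 ± 16.2 CPM in KO sham and 90.6 ± 6.24 CPM in WT MEST mice (SD, n = 4 and 5, log2 fold change 0.11, adjusted p = 0.904). The other 7 members had at most 5 reads in any of the 9 libraries.

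Folh1, which encodes glutamate carboxypeptidase II, the enzyme that cleaves the neuropeptide N-acetylaspartylglutamate, was lower in KO sham mice. It had 11.5, 10.8, 10.3 and 10.1 CPM in KO sham libraries and 24.0, 21.9, 24.6, 26.2 and 28.6 CPM in WT MEST libraries, without overlap. The log2 fold change was -1.22 (SE 0.09, adjusted p = 2.81e-06). In the converse pair it was lower in KO MEST mice as well, by less (15.5 ± 2.87 CPM in KO MEST, 21.8 ± 5.06 CPM in WT sham, SD, n = 5 each, log2 fold change -0.47, adjusted p = 0.0361). The fit of all 19 libraries gave a log2 fold change of -1.01 in KO sham over WT sham (adjusted p = 1.5e-05) and of -0.71 in KO MEST over WT MEST (adjusted p = 0.00167). Folh1 also passed in that fit in KO MEST over KO sham (0.52, adjusted p = 0.0339), but not in WT MEST over WT sham (0.22, adjusted p = 0.226). Folh1 lies on the minus strand of chromosome 7 (86718977 to 86775943).

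Ddo encodes D-aspartate oxidase, which degrades D-aspartate, an amino acid that acts at NMDA receptors. It had 17.1, 17.9, 16.9 and 15.6 CPM in KO sham libraries and 8.77, 8.85, 9.57, 9.84 and 10.3 CPM in WT MEST libraries. Every KO sham library was thus above every WT MEST library (log2 fold change 0.83, SE 0.09, adjusted p = 0.000285). KO MEST libraries, at 16.7 to 20.6 CPM, and WT sham libraries, at 8.49 to 11.3 CPM, fell into the same ranges by genotype (log2 fold change 0.96, adjusted p = 7.86e-07). Between KO MEST and KO sham mice (log2 fold change 0.15, adjusted p = 0.423) and between WT MEST and WT sham mice (-0.03, adjusted p = 0.821) Ddo did not pass. It lies on chromosome 10 (40630011 to 40681847, plus strand), 17.2 Mb from the start of Fabp7.

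Hddc3 encodes an HD-domain hydrolase, the animal relative of the bacterial alarmone hydrolase SpoT. It had 12.1, 13.8, 11.9 and 10.7 CPM in KO sham libraries, against 35.0, 35.2, 25.4, 36.3 and 34.7 CPM in WT MEST libraries. The groups were far apart (log2 fold change -1.44, SE 0.11, adjusted p = 2.81e-06), but the gene did not pass in the converse pair. KO MEST libraries ranged from 11.4 to 39.5 CPM and WT sham libraries from 17.9 to 30.7 CPM (log2 fold change 0.14, adjusted p = 0.788). In the fit of all 19 libraries the comparison of KO sham with WT MEST no longer passed (adjusted p = 0.0528). KO sham over WT sham passed in that fit (-0.83, adjusted p = 0.0318), whereas KO MEST over WT MEST did not (-0.48, adjusted p = 0.232). Hddc3 (chromosome 7, 80343104 to 80350547, plus strand) overlaps Man2a2 on the minus strand. Prc1, a spindle midzone protein whose gene ends at 80316259 on the same chromosome, averaged 2.23 ± 0.29 CPM in KO sham and 4.21 ± 0.831 CPM in WT MEST mice (SD, n = 4 and 5) without passing (log2 fold change -0.87, adjusted p = 0.11). Prc1 did pass without WT MEST 3 (adjusted p = 0.0142), in the fit of all 19 libraries (0.0375) and with DESeq2 (0.000756).

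Npas4, an activity-dependent transcription factor of excitatory and inhibitory neurons, was the most increased protein-coding gene that passed. It had 27.6, 42.1, 34.2 and 21.9 CPM in KO sham libraries and 8.38, 7.48, 6.9, 5.07 and 5.81 CPM in WT MEST libraries. The lowest KO sham library was thus well above the highest WT MEST library, and the ratio of the group means was 4.67 (log2 fold change 2.19, SE 0.19, adjusted p = 0.000366). In the converse pair the direction was opposite by genotype and the same by treatment, with 9.89, 8.7, 33.3, 9.39 and 42.9 CPM in KO MEST libraries and 37.2, 65.4, 62.3, 65.8 and 40.4 CPM in WT sham libraries (log2 fold change -1.67, adjusted p = 0.0489). KO MEST 3 and KO MEST 5 lay within the KO sham range or just above it, while the other 3 KO MEST libraries lay near the WT MEST range. In the fit of all 19 libraries, WT MEST over WT sham had a log2 fold change of -2.97 (adjusted p = 9.8e-05), KO MEST over KO sham of -0.90 (adjusted p = 0.294) and KO sham over WT sham of -0.78 (adjusted p = 0.235). In that fit KO sham over WT MEST did not pass (adjusted p = 0.125).

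A similar layout was seen in other immediate early genes, none of which passed limma on its own. They were named because DESeq2 called them or because they are the usual readouts of neuronal activity, with their values known beforehand. Fos, a subunit of the AP-1 factor, had 41.0, 85.6, 51.5 and 33.4 CPM in KO sham libraries and 12.5, 21.5, 20.0, 10.3 and 17.1 CPM in WT MEST libraries (log2 fold change 1.66, SE 0.32, adjusted p = 0.449 with limma and 0.00105 with DESeq2). Egr2, a zinc finger factor, had 7.56, 23.8, 9.86 and 6.86 CPM in KO sham and 1.24, 3.24, 3.55, 1.26 and 2.22 CPM in WT MEST libraries (log2 fold change 2.27, SE 0.46, adjusted p = 0.449 with limma and 0.00248 with DESeq2). In both genes every KO sham library was above every WT MEST library, and KO sham 3 was the highest.

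Arc, Dusp1 and Btg2, chosen after their values were seen, had the same layout. Arc, whose protein drives endocytosis of AMPA receptors, had 231, 466, 308 and 232 CPM in KO sham and 143, 173, 139, 104 and 128 CPM in WT MEST libraries (log2 fold change 1.13, adjusted p = 0.498 with limma and 0.00444 with DESeq2). Dusp1, a phosphatase that inactivates MAP kinases, had 43.7, 91.1, 50.8 and 40.5 CPM in KO sham and 28.2, 25.3, 26.5, 24.3 and 23.6 CPM in WT MEST libraries (log2 fold change 1.07, adjusted p = 0.414 with limma and 0.00249 with DESeq2). Btg2, an antiproliferative factor induced by activity, had 34.9, 66.6, 35.3 and 25.8 CPM in KO sham and 17, 17, 14.4, 16.6 and 14.7 CPM in WT MEST libraries (log2 fold change 1.26, adjusted p = 0.323 with limma and 0.00043 with DESeq2). In all 3 genes KO sham 3 was the highest library. Without it Btg2 (adjusted p = 0.000266) and Dusp1 (adjusted p = 0.000238) passed with limma, whereas Arc (0.268), Fos (0.548), Egr2 (0.184), Cyr61 (0.184) and Nr4a1 still did not. Btg2 also passed without KO sham 5 (adjusted p = 0.0317). Cyr61, a secreted matricellular protein, averaged 13.8 ± 9.45 CPM in KO sham and 3.83 ± 1.04 CPM in WT MEST mice. Nr4a1, an orphan nuclear receptor, averaged 87.9 ± 32.9 CPM in KO sham and 44.8 ± 12.7 CPM in WT MEST mice (SD, n = 4 and 5). Each was without overlap between the groups and did not pass limma (adjusted p = 0.814 and 0.904). DESeq2 called Cyr61 (adjusted p = 0.0204) but not Nr4a1 (0.36).

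**Figure D2:**
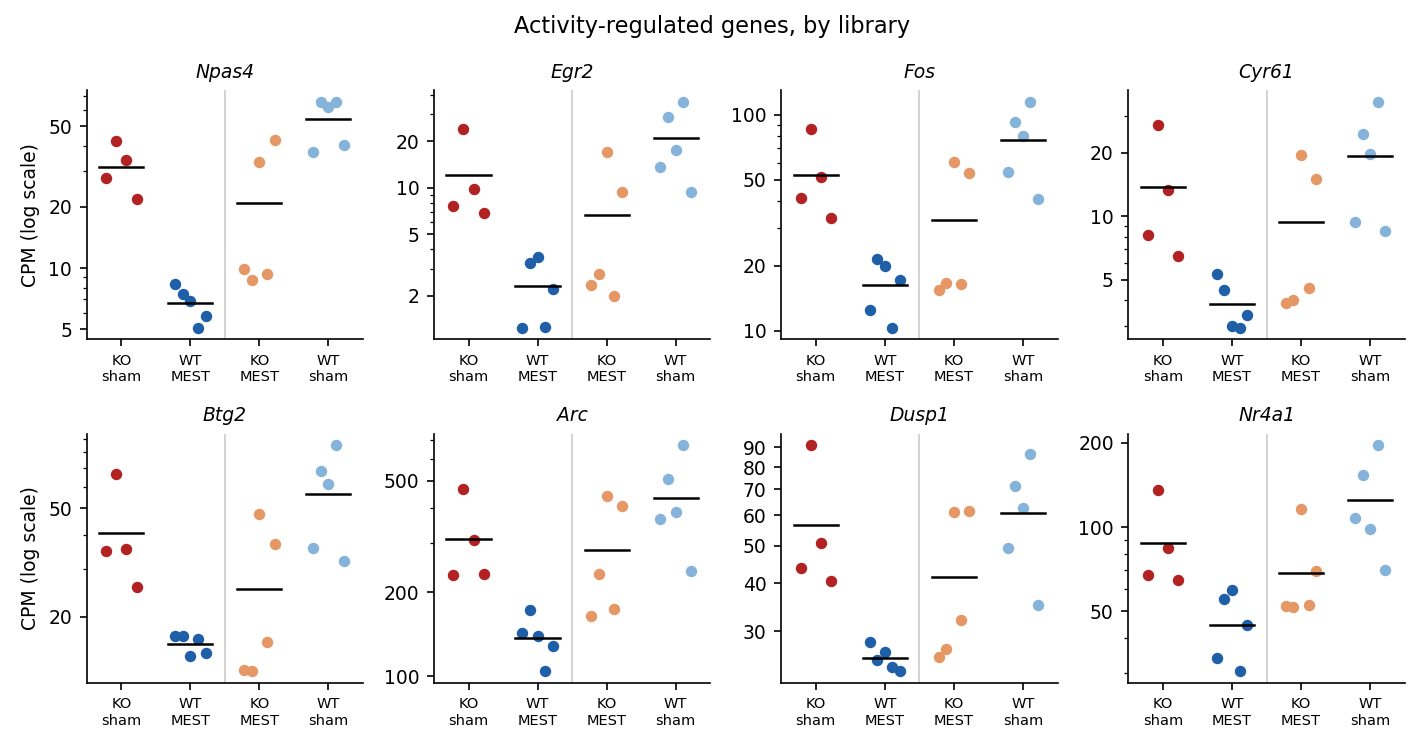
CPM of 8 activity-regulated genes (vertical, log scale) in each library of KO sham, WT MEST, KO MEST and WT sham mice, with a bar at each group mean. The KO sham libraries lie above all WT MEST libraries in each panel, as in Npas4 (21.9 to 42.1 CPM against 5.07 to 8.38 CPM), and KO MEST 3 and 5 lie above the other KO MEST libraries in each panel.

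Other activity genes did not share this. Fosb averaged 12.3 ± 3.35 CPM in KO sham and 10.3 ± 4.99 CPM in WT MEST mice, Egr4 11.8 ± 5.97 CPM in KO sham and 11.4 ± 5.42 CPM in WT MEST mice (SD, n = 4 and 5), with overlapping groups. Bdnf, the neurotrophin whose transcripts rise later than those of Fos, averaged 34.6 ± 4.43 CPM in KO sham and 39.7 ± 5.88 CPM in WT MEST mice (log2 fold change -0.19, adjusted p = 0.904). Over the 29 tested members of a list of immediate early transcription factors, 1 passed (Npas4), against 0.0372% of all genes passing as higher. In KO sham mice 22 had a higher mean, as had 8157 of all 16137 genes tested. At an unadjusted p under 0.05, 9 were higher and 3 lower, against 2.29% and 2.31% of all genes tested. Without overlap between the groups 6 were higher, against 0.973% of all genes tested. The median log2 fold change was 0.10, against 0.00 over all genes tested. Of 32 tested effectors none passed limma, and 5 were higher and 4 lower at an unadjusted p under 0.05, on the same background of 2.29% and 2.31%. DESeq2 called 2 of them higher (0.112% of all genes). Of 17 MAP kinase feedback regulators none passed limma, 2 were higher and 0 lower at an unadjusted p under 0.05, and DESeq2 called 1 higher, on the same backgrounds. Over the 3 lists together, 7 of 78 tested genes were called higher and 0 lower by DESeq2, against 0.112% of all genes higher. The summed level of the immediate early factors was 1140 to 1660 CPM (median 1370) in KO sham, 979 to 1240 CPM (median 1080) in WT MEST, 973 to 1680 CPM in KO MEST and 1630 to 2330 CPM in WT sham libraries. KO sham 3, which stood apart on the first component, had the highest KO sham level of Npas4, Fos, Egr2, Arc, Dusp1, Btg2, Cyr61 and Nr4a1, and its part in the DESeq2 calls was not tested.

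The starts of 4 of these activity genes, whose groups did not overlap, are shown for the element TGACG (or CGTCA on the other strand), the core of the cyclic AMP response element through which CREB-family factors act on activity genes, in capitals. The 250 bases before the RefSeq start (GRCm38.p6) were searched on both strands, and TGACGTCA, which reads the same on both strands, counts as an overlapping pair. The stretch of Npas4 is chr19:4990128-4990157 (minus strand), which lies inside an annotated exon, that of Fos is chr12:85473640-85473889 (plus), that of Btg2 is chr1:134079156-134079405 (minus) and that of Dusp1 is chr17:26508520-26508722 (minus), all printed 5′ to 3′.
Npas4: cgttcgaCGTCAcgggaTGACGtcggaagt
Fos: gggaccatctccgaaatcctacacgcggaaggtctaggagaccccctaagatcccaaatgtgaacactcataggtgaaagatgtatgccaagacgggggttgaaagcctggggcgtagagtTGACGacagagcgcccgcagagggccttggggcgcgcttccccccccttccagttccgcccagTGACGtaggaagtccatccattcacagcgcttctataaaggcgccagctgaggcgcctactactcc
Btg2: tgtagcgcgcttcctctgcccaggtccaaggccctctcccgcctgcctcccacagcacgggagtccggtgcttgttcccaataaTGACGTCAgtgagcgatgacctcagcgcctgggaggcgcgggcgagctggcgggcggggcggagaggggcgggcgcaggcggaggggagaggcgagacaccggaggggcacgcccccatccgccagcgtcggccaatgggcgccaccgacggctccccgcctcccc
Dusp1: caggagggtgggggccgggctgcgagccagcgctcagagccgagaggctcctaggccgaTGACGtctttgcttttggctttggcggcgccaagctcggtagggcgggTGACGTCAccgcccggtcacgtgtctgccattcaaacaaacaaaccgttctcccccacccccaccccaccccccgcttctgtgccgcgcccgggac
Each of these 4 windows held the element, Npas4 at 169 and 179 bases and Fos at 66 and 129 bases before the start, and Btg2 and Dusp1 held the full TGACGTCA. The 4 are examples. Other activity genes without overlap, such as Egr2, Cyr61 and Nr4a1, are not printed, so the 4 do not give a share. Of 32851 promoter windows of the same length, 17.8% held TGACG or CGTCA and 1.55% held TGACGTCA. Of the 79 genes of the 3 activity lists 59 had a RefSeq window and 34 of these held the element, against 19.8% of 27025 genes. A match describes the letters only.

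Gfap was the only gene of 24 tested astrocyte markers and of 23 tested genes of astrocyte reactivity that passed. It had 152, 160, 158 and 172 CPM in KO sham libraries and 254, 209, 194, 260 and 253 CPM in WT MEST libraries, and every WT MEST library was higher (log2 fold change -0.53, SE 0.08, adjusted p = 0.0238). In the converse pair Gfap was higher in KO MEST mice, with 245, 670, 212, 254 and 322 CPM against 166, 148, 162, 187 and 141 CPM in WT sham libraries (log2 fold change 0.97, adjusted p = 0.0472). KO sham and WT sham mice had the same mean of 161 CPM (log2 fold change 0.00 in the fit of all 19 libraries, adjusted p = 0.995). KO MEST over KO sham had a log2 fold change of 0.95 (adjusted p = 0.0464) and WT MEST over WT sham of 0.54 (adjusted p = 0.103). KO sham over WT MEST did not pass for Gfap in the fit of all 19 libraries (adjusted p = 0.787), with no filter (0.0699), with an age covariate (0.0617) or with the replicate block (0.14). The gene overlaps the model Gm26668 on the other strand.

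Other astrocyte genes did not pass. Cxcl10, a chemokine counted in the reactivity list and chosen after its values were seen, averaged 0.435 CPM in KO sham and 0.217 CPM in WT MEST mice, without overlap between the groups (log2 fold change 0.80, adjusted p = 0.904). The water channel gene Aqp4 had 164, 160, 153 and 166 CPM in KO sham libraries and 169, 170, 170, 192 and 187 CPM in WT MEST libraries, without overlap but without passing (log2 fold change -0.14, adjusted p = 0.904). Serpina3n, a protease inhibitor that marks reactive astrocytes, averaged 26.7 ± 4.26 CPM in KO sham and 30.4 ± 3.25 CPM in WT MEST mice (SD, n = 4 and 5, log2 fold change -0.19, adjusted p = 0.904), and was higher in KO MEST than in WT sham mice (log2 fold change 1.03, adjusted p = 0.00402). The summed level of the reactivity list was 336 to 366 CPM in KO sham, 392 to 471 CPM in WT MEST, 408 to 949 CPM in KO MEST and 319 to 404 CPM in WT sham libraries. Gfap itself gave 152 to 172 CPM of this sum in KO sham and 194 to 260 CPM in WT MEST libraries.

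The remaining genes that passed were small in number and mixed in kind. Psma7, an alpha subunit of the proteasome core, had 56.4, 88.7, 60.4 and 72.9 CPM in KO sham libraries and 44.7, 44.8, 40.5, 40.2 and 42.2 CPM in WT MEST libraries (log2 fold change 0.69, SE 0.11, adjusted p = 0.0252). It did not pass in the fit of all 19 libraries (adjusted p = 0.338), with no filter (0.0559), with an age covariate (0.0806) or with the replicate block (0.18). KO MEST over WT sham had the same sign without passing (0.54, adjusted p = 0.0652). In the fit of all 19 libraries Psma7 passed in KO sham over WT sham (0.82, adjusted p = 0.00255), but not in KO MEST over WT MEST (0.40, adjusted p = 0.132). Tmem181b-ps, a transcribed pseudogene on chromosome 17 (6438524 to 6467022, minus strand), had 48.9, 52.8, 43.9 and 50.9 CPM in KO sham libraries and 118, 119, 76.3, 101 and 94.9 CPM in WT MEST libraries (log2 fold change -1.03, SE 0.11, adjusted p = 0.00169). The pseudogene has near copies beside it, and its reads may be shared with them, so that its level is uncertain. It was also lower in KO MEST than in WT sham mice (-1.28, adjusted p = 0.0019). In the fit of all 19 libraries it was lower in WT MEST than in WT sham mice too (-0.62, adjusted p = 0.0137). KO MEST over KO sham did not pass in that fit (0.35, adjusted p = 0.32).

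Of the noncoding RNAs, C030037D09Rik (chromosome 11, 88718645 to 88728893) had 4.63, 3.62, 2.86 and 3.91 CPM in KO sham and 1.24, 1.4, 1.76, 1.59 and 1.42 CPM in WT MEST libraries (log2 fold change 1.28, SE 0.17, adjusted p = 0.00352). It was higher by genotype in the converse pair too (4.15 ± 0.435 CPM in KO MEST, 1.9 ± 0.585 CPM in WT sham, SD, n = 5 each, log2 fold change 1.15, adjusted p = 0.000189). 5930438M14Rik (chromosome 13, 101232127 to 101247551) had 0.84, 0.84, 1.21 and 1.4 CPM in KO sham and 0.196, 0.122, 0.207, 0 and 0.207 CPM in WT MEST libraries (log2 fold change 2.33, SE 0.35, adjusted p = 0.0122). It is the only gene of the 12 with a mean under 2 CPM in both groups, with at most 8 reads in a WT MEST library, and did not pass in the converse pair (log2 fold change 1.11, adjusted p = 0.138). In KO sham over WT MEST it did not pass in the fit of all 19 libraries or with the replicate block.

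**Figure D3:**
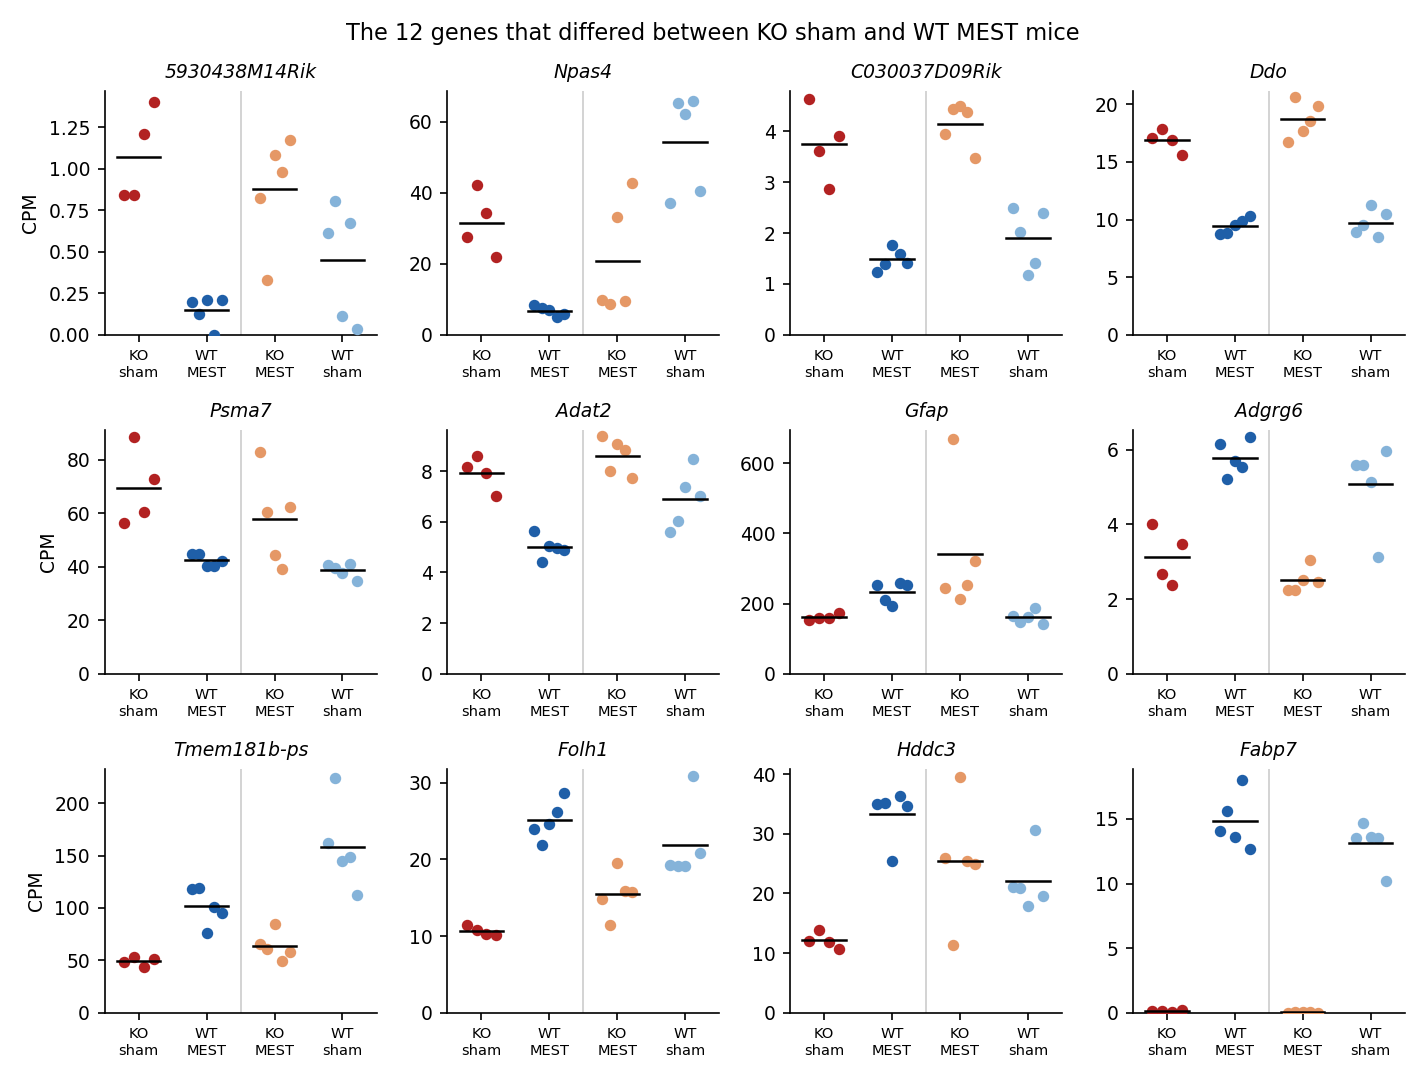
CPM of the 12 genes that passed (vertical, linear scale from 0) in each library of KO sham, WT MEST, KO MEST and WT sham mice, with a bar at each group mean. KO sham and WT MEST libraries do not overlap in any panel, while in the converse pair 7 genes passed in the same direction by genotype, and Npas4 and Gfap in the opposite one.

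Of the 12 genes, 7 passed in KO MEST over WT sham with the same direction (Fabp7, Folh1, Ddo, Tmem181b-ps, C030037D09Rik, Adat2 and Adgrg6), 2 with the opposite direction (Npas4 and Gfap), and 3 did not pass (Hddc3, 5930438M14Rik and Psma7, 2 of them with the same sign), against 25% of all genes. The 2 pairs share no library, and by design genotype keeps its direction between them while treatment reverses. When each of the 9 libraries was left out in turn, 7 of the 12 genes passed every time, namely Fabp7, Folh1, Hddc3, Ddo, Npas4, Tmem181b-ps and C030037D09Rik. The other 5 did not. 5930438M14Rik was lost without KO sham 4 or KO sham 5 (adjusted p up to 0.0834), Gfap without KO sham 2, 3 or 4 or WT MEST 1, 4 or 5 (up to 0.136) and Psma7 without KO sham 5 or any WT MEST library (up to 0.0989). Adat2 passed only without WT MEST 1 (up to 0.175 otherwise) and Adgrg6 only without KO sham 2 (up to 0.129 otherwise).

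Chromosome 10, which carries Fabp7, held 4 of the 12 genes and 4.62% of the genes tested. Besides Fabp7 and Ddo these were Adat2 and Adgrg6. Adat2, the catalytic subunit of an adenosine deaminase of transfer RNA (13552894 to 13563376), had 8.16, 8.59, 7.93 and 7.01 CPM in KO sham libraries and 5.64, 4.4, 5.06, 4.97 and 4.89 CPM in WT MEST libraries (log2 fold change 0.66, SE 0.11, adjusted p = 0.0326). Adgrg6, an adhesion G protein-coupled receptor needed for myelination by Schwann cells (14402583 to 14545659), had 4.0, 2.67, 2.37 and 3.47 CPM in KO sham libraries and 6.16, 5.22, 5.71, 5.53 and 6.34 CPM in WT MEST libraries (log2 fold change -0.89, SE 0.15, adjusted p = 0.0326). Both also passed in KO MEST over WT sham in the same direction (0.34, adjusted p = 0.0322, and -0.95, adjusted p = 0.000325). In the fit of all 19 libraries, Adat2 was lower in WT MEST than in WT sham mice (-0.45, adjusted p = 0.00357). KO sham over WT sham did not pass for Adat2 (0.21, adjusted p = 0.218), whereas KO MEST over WT MEST did (0.77, adjusted p = 0.000182). For Adgrg6, KO sham over WT sham passed (-0.68, adjusted p = 0.00529). Adat2 and Adgrg6 lie 44.2 and 43.4 Mb from the start of Fabp7, and each overlaps a gene on the other strand.

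Moxd1 and Txlnb on chromosome 10 did not pass limma but were called by DESeq2 (adjusted p = 0.00278 and 0.0332). They had the same sign by genotype in both pairs. Moxd1, a monooxygenase-like protein of the secretory pathway 33.6 Mb from Fabp7, had 9.47, 11.8, 9.19 and 9.03 CPM in KO sham and 6.23, 5.89, 7.42, 7.25 and 6.7 CPM in WT MEST libraries (log2 fold change 0.55, adjusted p = 0.162). It passed in KO MEST over WT sham (0.55, adjusted p = 0.00071). Txlnb, 40.0 Mb away, had log2 fold changes of -0.66 (adjusted p = 0.364) in KO sham over WT MEST and of -0.99 (adjusted p = 0.000321) in KO MEST over WT sham. In contrast, 66 genes within 5 Mb of Fabp7 were tested and Fabp7 was the only one that passed, with a median log2 fold change of -0.02. Over the whole chromosome, 745 genes were tested, with a median of -0.01, and 6 of the 35 genes with an unadjusted p under 0.001 (0.217% of all genes) lay there, against 7 on chromosome 11 with 1253 genes tested. Of the 37 DESeq2 calls (0.229% of all genes), 7 lay on chromosome 10 and 7 on chromosome 11.

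**Figure D4:**
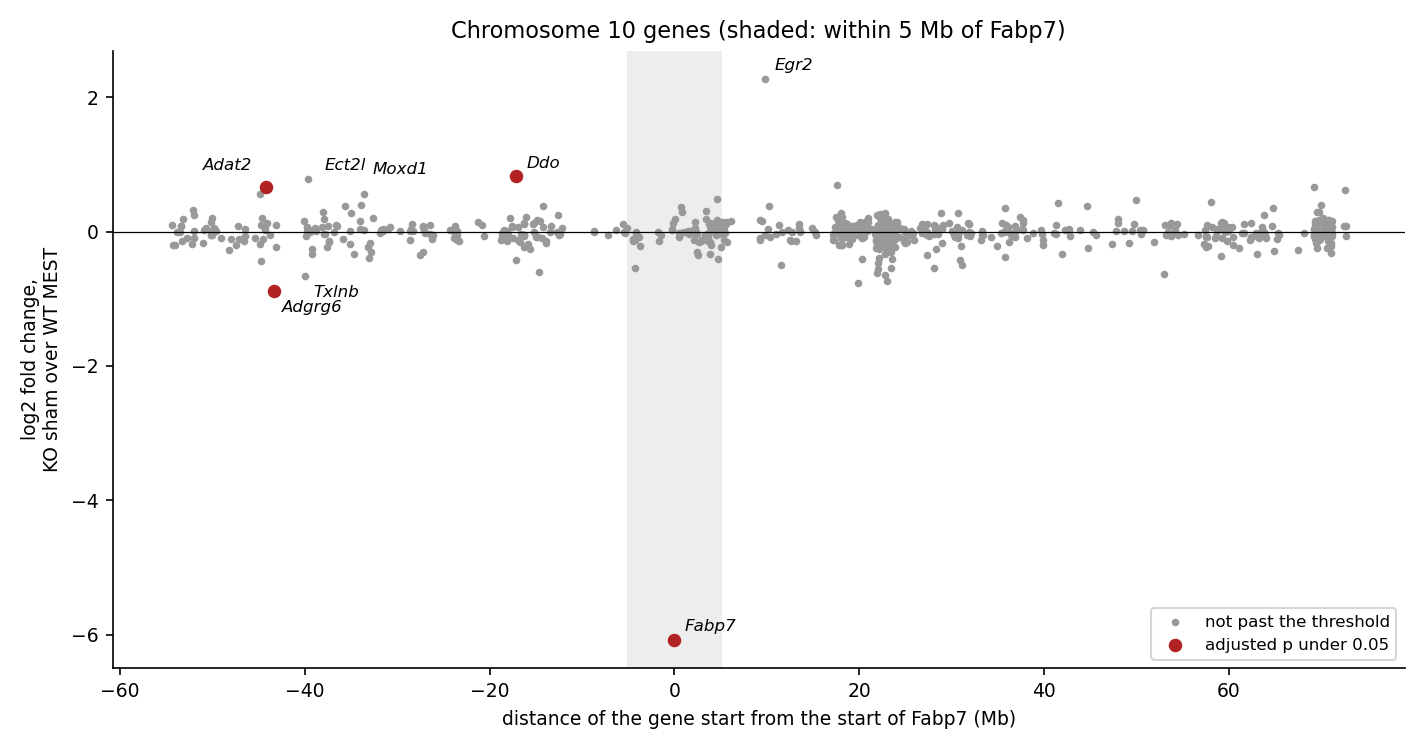
Log2 fold change of KO sham over WT MEST (vertical) for the 745 tested genes of chromosome 10, against the distance of the gene start from the start of Fabp7 in Mb (horizontal). Red marks the 4 genes with an adjusted p under 0.05, of which Ddo, Adgrg6 and Adat2 lie 17.2, 43.4 and 44.2 Mb away, and within the shaded 5 Mb either side only Fabp7 passed.

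Chromosome 11 carries a transcript that was low in every Fabp7-KO library. AA465934 had 0.955, 1.01, 7.13 and 1.94 CPM in KO sham libraries and 15.3, 15.3, 17.2, 15.6 and 17.6 CPM in WT MEST libraries (log2 fold change -2.99, adjusted p = 0.387). KO sham 4 stood apart from the other KO libraries, and without it the log2 fold change was -3.60 (adjusted p = 1.81e-08). AA465934 also passed with DESeq2 (adjusted p = 0.0131), in the fit of all 19 libraries (0.00182) and with no filter (0.0331), but not with edgeR (0.625). KO MEST libraries had 0.818 to 1.11 CPM, against 11.5 to 13.2 CPM in WT sham libraries (log2 fold change -3.58, adjusted p = 1.17e-13). Slfn8, of the Schlafen family on the same chromosome, averaged 1.14 ± 0.348 CPM in KO sham and 0.33 ± 0.206 CPM in WT MEST mice (SD, n = 4 and 5, log2 fold change 1.61, adjusted p = 0.162). Without WT MEST 1 Slfn8 passed (log2 fold change 1.84, adjusted p = 0.0349), as it did with DESeq2 (0.00616). It was higher in KO MEST than in WT sham mice (1.97, adjusted p = 0.000605).

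Of 38 gene lists (860 of 892 distinct genes tested), 4 held a gene that passed in KO sham over WT MEST: the immediate early factors, the fatty acid binding proteins and both astrocyte lists. The other 34 held none with limma. List medians ranged from -0.34 to 0.11 on the log2 scale in KO sham over WT MEST, and from -0.63 to 0.26 in KO MEST over WT sham. The lists were chosen with results of these libraries known and are given as descriptions.

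The cytosolic ribosomal and oxidative phosphorylation lists are given first. Of 78 cytosolic ribosomal protein genes, none passed limma and none DESeq2 in KO sham over WT MEST (2 higher and 1 lower at an unadjusted p under 0.05, median 0.08), whereas 44 were higher and 6 lower in KO MEST over WT sham (median 0.19), against 14.7% higher and 10.3% lower of all genes tested there. Rps14, a member of the small subunit, had 124, 132, 148 and 136 CPM in KO sham and 126, 145, 139, 112 and 111 CPM in WT MEST libraries (log2 fold change 0.10, 95% interval -0.08 to 0.28), against 103 ± 4.14 CPM in KO MEST and 70.0 ± 3.74 CPM in WT sham mice (SD, n = 5 each, log2 fold change 0.57, adjusted p = 4.05e-07). Of 73 subunits of oxidative phosphorylation, none passed limma or DESeq2 (2 higher and 1 lower unadjusted, median 0.05), against 34 higher and 6 lower in KO MEST over WT sham, on the same background. Cox5a, a subunit of cytochrome c oxidase, averaged 131 ± 16.4 CPM in KO sham and 140 ± 7.36 CPM in WT MEST mice (log2 fold change -0.10), and 104 ± 16.9 CPM in KO MEST and 69.8 ± 5.78 CPM in WT sham mice (SD, n = 4 in KO sham and 5 in the others, log2 fold change 0.58, adjusted p = 0.000348).

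Splicing factors had the opposite direction in the converse pair. None of 43 passed limma or DESeq2 in KO sham over WT MEST (1 higher and 0 lower unadjusted, median 0.04), while 3 were higher and 19 lower in KO MEST over WT sham (median -0.15), where 14.7% of all genes tested were higher and 10.3% lower. Srsf5, which binds exonic splicing enhancers, had 126, 165, 114 and 133 CPM in KO sham and 120, 126, 102, 134 and 156 CPM in WT MEST libraries (log2 fold change 0.08, 95% interval -0.18 to 0.34), against 135 to 180 CPM in KO MEST and 284 to 315 CPM in WT sham libraries (log2 fold change -0.93, adjusted p = 5.35e-08). Neat1, the scaffold RNA of paraspeckles, averaged 106 ± 18.6 CPM in KO sham and 107 ± 25.8 CPM in WT MEST mice (log2 fold change 0.00, 95% interval -0.39 to 0.40), and 121 ± 21.3 CPM in KO MEST and 206 ± 11.3 CPM in WT sham mice (SD, n = 4 in KO sham and 5 in the others, log2 fold change -0.76, adjusted p = 0.000161). Of 23 cholesterol synthesis genes, none passed limma or DESeq2 in KO sham over WT MEST (0 higher and 1 lower unadjusted, median -0.08), against 14 higher and 0 lower in KO MEST over WT sham, on the same background. In Rps14, Cox5a, Srsf5 and Neat1 the WT sham libraries overlapped none of the other 3 groups.

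**Figure D5:**
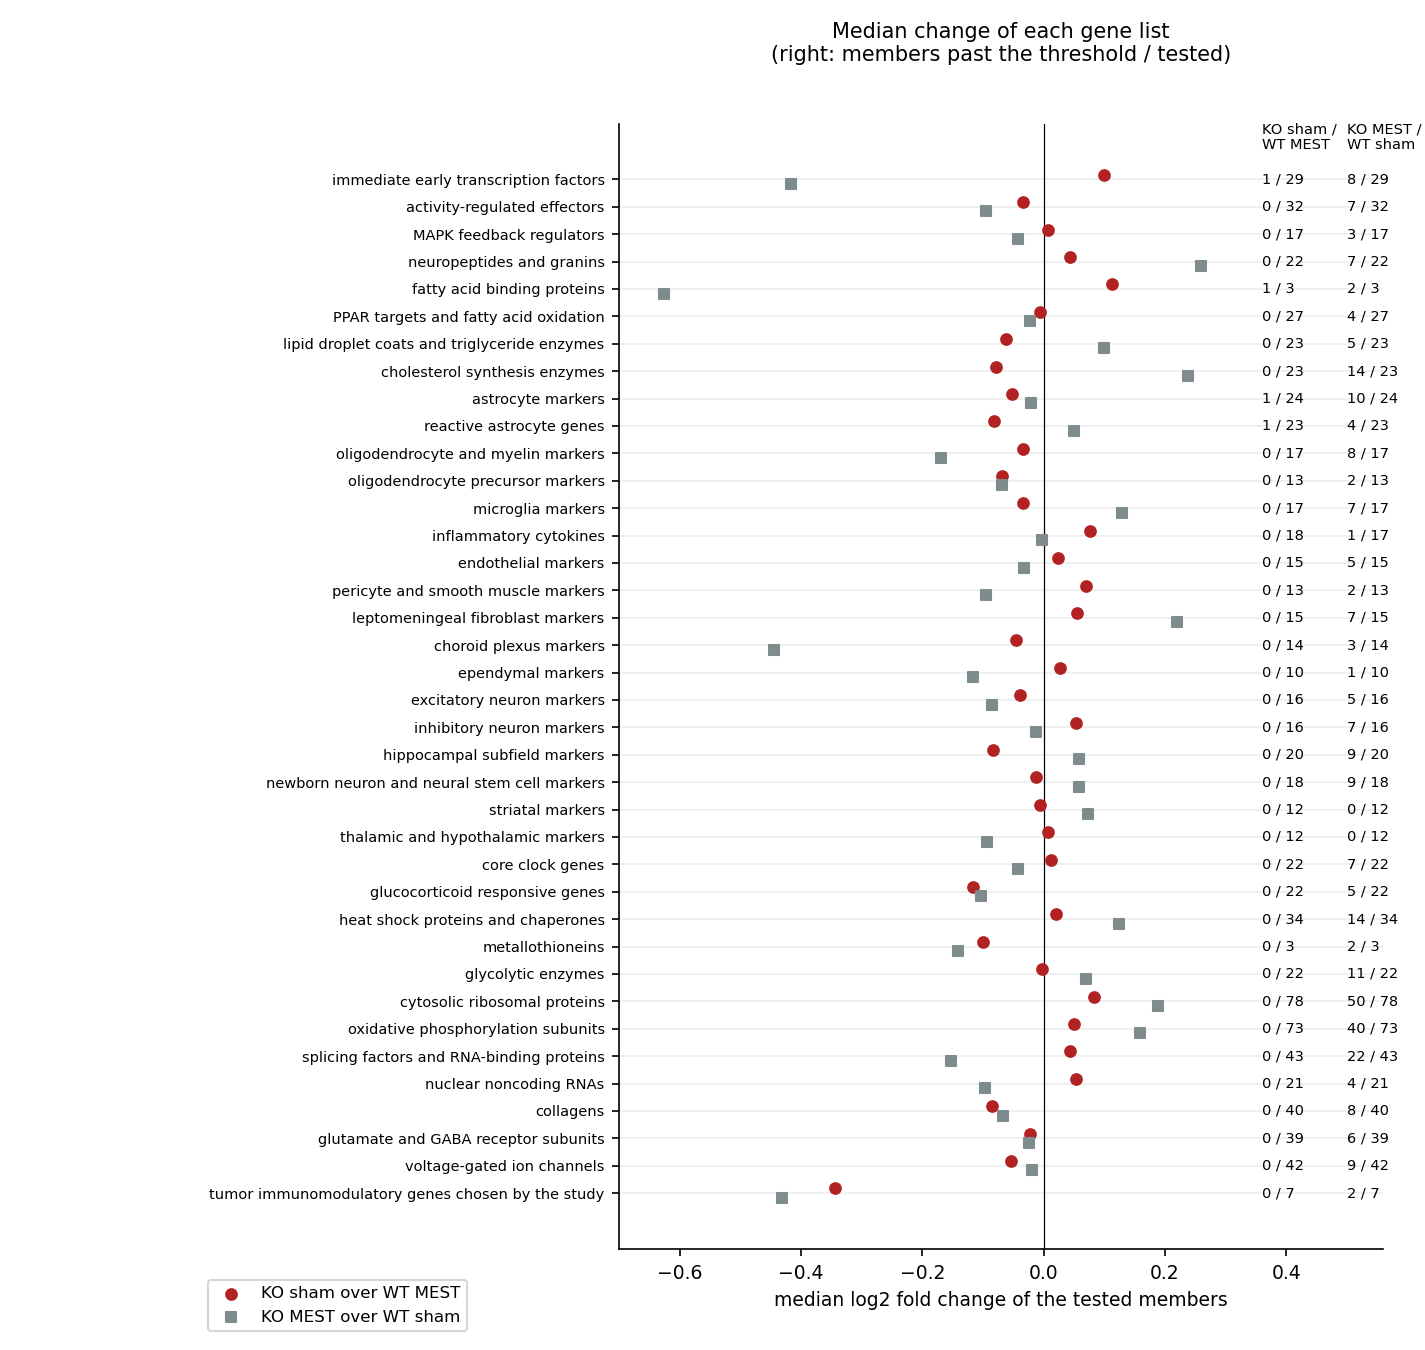
Median log2 fold change (horizontal) of the tested members of 38 gene lists, for KO sham over WT MEST (red circles, -0.34 to 0.11) and KO MEST over WT sham (grey squares, -0.63 to 0.26). Numbers at the right give the members with an adjusted p under 0.05 over those tested, such as 0 of 78 cytosolic ribosomal protein genes in KO sham over WT MEST.

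None of the markers of other cells and regions passed limma, while DESeq2 called some hippocampal and fibroblast markers. The fibroblast markers are given with the collagens below. Of 17 microglia markers none passed limma or DESeq2 (0 at an unadjusted p under 0.05, summed level 595 to 669 CPM in KO sham, 599 to 676 CPM in WT MEST). Of 17 oligodendrocyte and myelin markers none passed limma or DESeq2, and 0 were higher and 3 lower unadjusted (2.29% and 2.31% of all genes). Their summed level was 8640 to 9380 CPM in KO sham and 8170 to 10800 CPM in WT MEST. Among 20 markers of hippocampal subfields none passed limma, and 2 were higher and 2 lower unadjusted. DESeq2 called 2 of them lower (0.118% of all genes). Wfs1, a membrane protein of CA1 neurons, had 87.6, 80.9, 86.0 and 79.3 CPM in KO sham and 120, 94.8, 104, 117 and 99.2 CPM in WT MEST libraries (log2 fold change -0.35, adjusted p = 0.235). In the converse pair Wfs1 was higher in KO MEST mice (0.78, adjusted p = 6.4e-05), while C1ql2 (0.20, adjusted p = 0.176) and Lhx6 (-0.03, adjusted p = 0.802) did not pass there. C1ql2, a secreted synaptic protein of dentate granule cells, had 14.0, 15.9, 22.2 and 22.8 CPM in KO sham and 27.4, 27.0, 32.0, 32.3 and 24.0 CPM in WT MEST libraries (log2 fold change -0.62, adjusted p = 0.449). Lhx6, a transcription factor of interneurons from the medial ganglionic eminence, had 18.4, 20.5, 18.9 and 18.2 CPM in KO sham and 14.9, 16.8, 15.3, 13.2 and 15.0 CPM in WT MEST libraries (log2 fold change 0.34, adjusted p = 0.449). In these 3 genes, chosen after their values were seen, the groups did not overlap, which held for 1.75% of all genes tested. Of 16 inhibitory neuron markers, Lhx6 among them, none passed limma or DESeq2 (4 higher and 1 lower unadjusted). Without overlap were 2 of the 20 hippocampal and 1 of the 16 inhibitory markers.

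Of 40 collagen genes none passed limma, 0 were higher and 5 lower at an unadjusted p under 0.05 (2.29% and 2.31% of all genes), and DESeq2 called 1 lower (0.118% of all genes). It was Col1a1, a fibrillar collagen of fibroblasts, with 5.04, 5.13, 8.23 and 7.31 CPM in KO sham and 11.3, 10.3, 7.86, 11.0 and 10.6 CPM in WT MEST libraries, the ranges of which overlap (log2 fold change -0.67, adjusted p = 0.375). In the converse pair it was higher in KO MEST mice (13.7 ± 1.4 CPM, against 6.35 ± 1.2 CPM in WT sham mice, SD, n = 5 each, log2 fold change 1.13, adjusted p = 2.52e-06). Like Npas4, Gfap and Wfs1, it had opposite signs by genotype in the 2 pairs. Col1a1 is also 1 of 15 leptomeningeal fibroblast markers, none of which passed limma. Of these, 10 had a higher mean in KO sham mice, as had 8157 of all 16137 genes tested (median log2 fold change 0.05). At an unadjusted p under 0.05, 4 were higher and 3 lower (2.29% and 2.31% of all genes). DESeq2 called Slc6a13 higher (adjusted p = 0.027) and Col1a1 lower (0.0204), against 0.112% and 0.118% of all genes.

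None of the 7 tumor immunomodulatory genes that the study chose on sham libraries, KO sham among them, passed limma or DESeq2 in KO sham over WT MEST (1 higher and 1 lower at an unadjusted p under 0.05, median -0.34). Because these KO sham libraries served to choose them, their direction is not independent evidence. Il11, a secreted signal related to interleukin 6, had 0.232, 0.237, 0.412 and 0.246 CPM in KO sham and 0.522, 0.641, 0.545, 0.961 and 0.622 CPM in WT MEST libraries (log2 fold change -0.99, adjusted p = 0.555), at 8 to 16 reads in KO sham and 16 to 29 reads in WT MEST libraries. Junb, an AP-1 subunit, had 31.1, 36.2, 75.1 and 47.1 CPM in KO sham and 27.4, 32.1, 33.0, 25.9 and 22.7 CPM in WT MEST libraries (log2 fold change 0.68, adjusted p = 0.904). Muc1, Aim2, Eno1, Col5a1 and Col11a1 had log2 fold changes of -0.55, -0.39, -0.34, -0.19 and 0.06, with groups that overlapped. Eno1 had only 0.693 CPM on average in KO sham and 0.945 CPM in WT MEST mice and may share reads with its near copy Eno1b.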

How the data were processed

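RNA-seq libraries (poly(A)-selected, stranded kit) of 19 mice were used. Per the submitters' processing notes, the authors used bcl2fastq, Trimmomatic 0.39, HISAT2 2.2.1 (mm10), featureCounts (Subread 2.0.3) and DESeq2 1.36.0, and the strand setting of counting is not given in the sources used here, so that overlapping genes on opposite strands cannot be told apart. The deposited values are a normalized signal, read counts that the authors divided by 1 DESeq2 size factor per library, in a table for the WT and a table for the KO mice. Columns with the authors' own fold changes and p-values of MEST against sham were not used. Division by the step of each library gave whole reads for 100% of values (tolerance 0.01). Of 24421 symbols, 27 had become dates (at most 0.384% of reads) and 24394 were used, 95.7% of which were found in GENCODE vM21 (GRCm38).

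Reads were rescaled to CPM, with TMM factors over all 19 libraries for the levels given and over the libraries fitted for each test. A gene entered a test when enough libraries of the pair reached 0.2 CPM. This was 4 or more for KO sham and WT MEST, and 5 or more for KO MEST and WT sham. It was then tested with limma 3.58.1 (R 4.3.3) on log2(CPM + 0.1), on the libraries of the pair alone, at a Benjamini-Hochberg adjusted p of 0.05. Fold changes on this scale understate the change of low genes. In simulated libraries of the same size (16137 genes), the test found 83.6% of 1.5-fold changes, 97% of 2-fold changes and 100% of 4-fold changes, and 2.6% of its calls were false. The 200 changed genes there had a mean of at least 1 CPM, and no simulated library stood apart as KO sham 3 did. With only 12 real calls the adjusted threshold is also stricter, so these shares do not give the power in the real data. Genes named are those that passed, up to 10 in each direction with a mean of at least 2 CPM and no overlap, with Fabp7, its family and the study's immunomodulatory genes. Other genes (5930438M14Rik and those that did not pass) were chosen after their values were seen. The members and lists were chosen with earlier results of these data known. Alternatives were edgeR 4.0.16 and DESeq2 1.42.0 (both on whole reads), other scalings, pseudocounts and filters, a replicate block, an age covariate, 1 model for all 19 libraries, thinned reads and each library left out. Promoter sequences are from RefSeq (GRCm38.p6), in which no window was found for Arc. The labels give a block of hippocampus and cortex and an age for each mouse, which were used here where the study's text describes its mice and tissue differently. Summaries used pandas 2.3.3 and numpy 2.4.6 in Python 3.11.15, and plots matplotlib 3.10.9.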

Additional observations from a re-analysis of the deposited data

Results flagged for a closer look

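Within KO sham or WT MEST mice, 11 of 134 gene and group combinations (67 genes) had 1 library far from the rest by the 95% critical value of Dixon's test, which chance passes in about 1 of 20 groups. In KO sham mice, library 3 was the highest for Trib1 (34.1 CPM, next 21.4 CPM), Dusp6 (122 CPM, next 84.1 CPM), Moxd1 (11.8 CPM, next 9.47 CPM) and Dynlt1b (1.06 CPM, next 0.721 CPM). Dusp6 was counted among the MAP kinase feedback regulators and Trib1 among the activity-regulated effectors. KO sham library 3 also had the highest KO sham levels of Npas4, Fos, Arc and Egr2. KO sham 4 was the highest for AA465934 (7.13 CPM, next 1.94 CPM) and Il11 (0.412 CPM, next 0.246 CPM). In WT MEST mice, the highest values stood apart for Fabp5 in library 1 (102 CPM, next 89.5 CPM), Col11a1 in library 5 (11.2 CPM, next 6.33 CPM) and Il11 in library 4 (0.961 CPM, next 0.641 CPM). The lowest values stood apart in WT MEST 3 for Hddc3 (25.4 CPM, next 34.7 CPM) and Col1a1 (7.86 CPM, next 10.3 CPM).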

How the results depend on the processing

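The 6 higher and 6 lower genes of KO sham over WT MEST were recovered by edgeR, both other scalings, pseudocounts of 0.5 and 1 and thinned reads. DESeq2 called 18 higher (11 over 2-fold) and 19 lower. Genes higher by over 2-fold numbered 3, but 1 with a pseudocount of 1, 1 in the fit of all 19 libraries and 1 with the replicate block. With the replicate block (KO sham and WT MEST libraries paired by number) 2 genes were higher and 4 lower, but same-numbered libraries did not vary together (correlations -0.0766 to -0.007), so the numbers were not taken as pairs. No filter gave 4 higher and 5 lower, a filter at 1 CPM 5 and 6, and an age covariate 4 and 4. With each library left out, 4 to 7 genes were higher and 4 to 8 lower (over 2-fold, 2 to 4 and 3 to 5). In KO MEST over WT sham the same ranges were 1889 to 2253 and 1288 to 1617. No gene that passed changed direction. Col5a1 (-0.31 to 0.02), Col11a1 (-0.06 to 0.26), Srsf5 (-0.02 to 0.15), Neat1 (-0.09 to 0.12) and Egr4 (-0.25 to 0.31), which passed in no alternative, changed sign (log2 fold change). Fabp7, Folh1, Ddo and Tmem181b-ps passed in all 21 alternatives, Hddc3, Npas4 and C030037D09Rik in 20, 5930438M14Rik in 16 of the 20 that tested it, Gfap and Psma7 in 11 and Adat2 and Adgrg6 in 10. Where a call was lost, the cause was not tested. Depth limits 5930438M14Rik, Il11, Eno1, Muc1 and Slfn8, among others, each with under 60 reads in every KO sham and WT MEST library.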

Other observations

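A few genes split KO sham or WT MEST mice internally, with values that differ by several fold between mice of 1 group. Scand1, a zinc finger related factor, had 0.608, 0.258, 10.0 and 7.55 CPM in KO sham libraries and 7.08, 11.2, 13.8, 8.45 and 7.29 CPM in WT MEST libraries. Prr7, a synaptic proline-rich protein, had 2.35, 1.57, 20.4 and 13.7 CPM in KO sham and 15.7, 19.2, 20.1, 16.4 and 14.4 CPM in WT MEST libraries. Pcsk1n, the precursor of the proprotein convertase inhibitor proSAAS, had 40.1, 24.9, 260 and 188 CPM in KO sham and 197, 334, 350, 217 and 166 CPM in WT MEST libraries. In all 3 genes KO sham 2 and 3 were low, and in the converse pair KO MEST 1 was high and KO MEST 2 to 5 were low, as in Pcsk1n with 375 CPM in KO MEST 1 and 44.2 to 78.5 CPM in the others. None of the 3 passed in KO sham over WT MEST (adjusted p = 0.904 for each with limma).

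Other transcripts split along different mice. Gm15446, a zinc finger gene model on chromosome 5, had 2.75, 0.0215, 2.52 and 0.0492 CPM in KO sham and 5.74, 2.63, 5.19, 2.48 and 6.49 CPM in WT MEST libraries, while KO MEST libraries had at most 0.039 CPM and WT sham libraries 7.23 to 10.0 CPM. The noncoding 2610507I01Rik had 1.68, 2.0, 1.85 and 2.51 CPM in KO sham libraries. In WT MEST libraries it had 14.1, 11.3 and 13.1 CPM in mice 1 to 3 and 2.15 and 2.05 CPM in mice 4 and 5. These genes were chosen after their values were seen.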
